A study of Mus musculus with 11 samples.

Results

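Lysosomes are the acidic compartments in which cells break down proteins, lipids and sugars, and microglia, the resident phagocytes of the brain, send engulfed material such as tau aggregates to them. Proteases of the cathepsin group and other hydrolases do the cutting, membrane proteins hold the compartment together and export its products, and a proton pump, the vacuolar ATPase, keeps it acidic. The transcription factors Tfeb, Tfe3 and Mitf bind E-box sequences in the promoters of many of these genes.

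The results below describe 52 lysosome genes, of 31053 genes counted, in nuclei of mouse cortex. The 52 were chosen as a named list, and the rows with these symbols were taken from every count matrix, so that all 52 were found. By role they are 8 cathepsins, 11 membrane proteins, 18 other hydrolases, 3 other lumenal proteins (Grn, Psap and Npc2), 3 regulators and 9 proton pump subunits.

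The nuclei came from 11 mice, 1 library each, and carried either tau with the P301S mutation (the PS19 transgene) or no tau transgene. The NonTg group (ikbkb+/+) had 4 mice aged 9.8 to 10.85 months, the P301S group (ikbkb+/+;P301S+) 3 mice aged 9.15 to 10.75 months, the KO_P301S group (ikbkb-/-;P301S+) 2 mice aged 8.39 and 9.15 months, and the CA_P301S group (ikbkbCA;P301S+) 2 mice aged 9.8 and 10.85 months. Ikbkb encodes IKKβ, the kinase that activates NF-κB. In KO_P301S mice it was deleted from microglia, and in CA_P301S mice a constitutively active form was switched on there, in both cases by a tamoxifen-induced Cre driven from the Cx3cr1 locus, so that these 4 mice also had 1 Cx3cr1 allele replaced by CreERT2. Per the study's methods all mice received tamoxifen, and the NonTg and P301S mice carried the floxed alleles without Cre. The samples came from 2 breeding lines, one with floxed Ikbkb (2 NonTg, 2 P301S and both KO_P301S mice) and one with the inducible active IKKβ (2 NonTg, 1 P301S and both CA_P301S mice). KO_P301S and CA_P301S mice therefore differ in line as well as in genotype, and their ages do not overlap. Transcripts were counted as unique molecular identifiers (UMIs). All 11 are labelled female, whereas the study states that its RNA-seq was done on male mice. Xist stood at 764 to 1470 CPM (UMIs of a gene scaled to 1e6 UMIs of that type and mouse) in the excitatory neurons of every mouse.

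Of 103065 nuclei kept, 4489 fell in a microglia-like cluster in which 12 of 12 microglial markers were raised, with 193 to 729 nuclei and 387450 to 1653312 UMIs per mouse. Ikbkb itself, whose counts cover the whole gene and not only the deleted part, read 112 and 113 CPM in the microglia-like nuclei of KO_P301S mice, 134 to 152 CPM in P301S mice and 150 and 163 CPM in CA_P301S mice. P301S replicate 3, the P301S mouse from the active IKKβ line, stood apart: it was the highest mouse for 21 of the 44 lysosome genes with enough counts, against at most 5 for any other mouse. The same count over all genes was not made, so whether this is particular to lysosome genes is not known. This mouse had the most microglia-like nuclei (729) and the lowest share of UMIs on 24 neuronal transcripts (2.18%, against 2.35% to 3.37% in the others). CA_P301S replicate 1 was near it in both, with 694 nuclei and 2.35%. Values without P301S replicate 3 are given for the member counts and for the named genes whose values it moved most. Markers of excitatory neurons were read in microglia-like nuclei at 13.9% to 56.8% of their neuronal level (median 32.8%), and the source of this signal was not tested. Microglial markers were read in excitatory neurons at no more than 0.874% of their microglial level. No pair of libraries shared more than 45 cell barcodes.

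A palindromic E-box, CACGTG, was present in the promoters of 13 of the 43 lysosome genes with a listed promoter (30.2%), against 2187 of 27025 genes in all (8.09%). Its extended form TCACGTGA was present in 7 of the 43 (16.3%) and in 304 of the 27025 (1.12%). Both are their own reverse complement, so 1 search covers both strands, and each TCACGTGA also contains a CACGTG. The promoters are 300-base RefSeq windows (250 bases before and 50 after a start, GRCm38.p6), and a match is a description of the letters, not of a bound site. The genes with the extended form were Ctsa, Ctsd, Cln3, Mcoln1, Atp6v0d1, Atp6v1a and Gla, and 5 of these matches are printed to show the shared core in genes of 3 roles, 5′ to 3′ on the strand of the gene, with the motif in capitals.
Ctsa (chr2:164833749-164833778, plus strand): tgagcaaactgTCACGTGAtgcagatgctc
Ctsd (chr7:142387908-142387937, minus strand): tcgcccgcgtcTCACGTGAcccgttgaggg
Cln3 (chr7:126583340-126583369, minus strand): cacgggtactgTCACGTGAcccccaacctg
Mcoln1 (chr8:3500462-3500491, plus strand): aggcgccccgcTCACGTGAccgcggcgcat
Atp6v0d1 (chr8:105566050-105566079, minus strand): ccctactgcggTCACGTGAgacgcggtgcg
The promoters of Arsb, Ctsc, Ctss, Ctsz, Mitf and Grn held no CACGTG in these windows. Lamp1, the major glycoprotein of the lysosomal membrane, had 4 copies of CACGTG close together, the last of which reads as follows.
Lamp1 (chr8:13159134-13159163, plus strand): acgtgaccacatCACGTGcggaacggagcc

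Microglia-like nuclei spent the largest share of their UMIs on the 52 genes. The share was 0.579% ± 0.061 (SD, n = 11 mice), against 0.257% ± 0.033 in endothelial-like nuclei (n = 7), 0.235% ± 0.011 in oligodendrocytes, 0.229% ± 0.018 in fibroblast-like nuclei (n = 10) and 0.199% ± 0.023 in mural-like nuclei. Astrocytes stood at 0.196% ± 0.009, oligodendrocyte precursors at 0.186% ± 0.007, inhibitory neurons at 0.184% ± 0.011, excitatory neurons at 0.159% ± 0.007 and striatal projection neurons at 0.155% ± 0.004. The lowest microglial value of any mouse, 0.513%, lay above the highest value of every other type, 0.318% in an endothelial-like sample, whereas neighbours below microglia in this order overlapped between mice. Microglia, 4.36% of the nuclei, held 4.25% of all UMIs on the 52 genes, and excitatory neurons, with much more RNA per nucleus, held 49.3%. Per nucleus, the 52 genes had 12.7 UMIs in microglia-like nuclei. Excitatory, inhibitory and striatal projection neurons had 18.2, 15.5 and 14.5, and every other type 8.58 or fewer. The higher microglial share is thus a share of a smaller total.

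**Figure D1:**
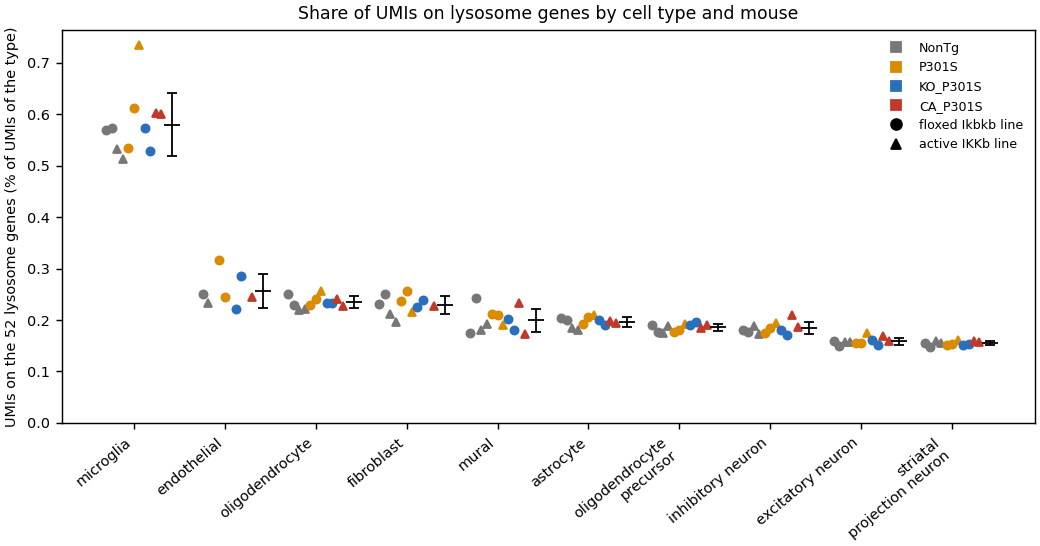
Percent of the UMIs of each cell type that fall on the 52 lysosome genes (y axis) by type (x axis), with 1 point per mouse coloured by genotype, circles for the floxed Ikbkb line and triangles for the active IKKβ line, and the mean ± SD over mice at the right of each type. All 11 microglial points lie above every point of the other types, and the highest, at 0.734%, is P301S replicate 3.

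All 8 cathepsins had their highest mean level in microglia-like nuclei, although Ctsl (34.9 CPM) was near its 29.9 CPM in endothelial-like nuclei, with overlap between mice. Of the 51 genes with any UMI, 34 had their highest mean CPM in microglia-like nuclei, and 18 of these were at least 2 times the next type, 13 of them with no overlap between mice. Ctss, the cysteine protease of antigen-presenting cells, read 538 ± 68 CPM in microglia-like nuclei (SD, n = 11) and 5.19 CPM in the next type, a ratio of 104. Ctsz (127 CPM, 5.86 times the next type), Ctsb (209 CPM, 4.83 times), Ctsc (127 CPM, 3.53 times) and Ctsa (94.5 CPM, 2.02 times) followed. Ctsd stood at 6.91 times the next type, but at only 3.15 CPM and with overlap between mice. Ctsh, an aminopeptidase, was less selective at 161 CPM, since endothelial-like nuclei read 92.7 CPM. Among membrane proteins, Laptm5 (236 CPM, 53.6 times the next type) and Cd68 (42.3 CPM, 26.6 times), both known from phagocytes, stood furthest above the other types, and Cln3, lost in a juvenile storage disease, was 2.79 times the next type. Of the hydrolases, Man2b1 (5.03 times), Naglu (4.09 times), Gusb (3.84 times) and Hexa (3.20 times), which trim sugars from glycoproteins, glycosaminoglycans and gangliosides, met the same mark. So did progranulin, Grn (114 CPM, 5.88 times), and the regulators Tfe3 (95.3 CPM, 4.41 times) and Mitf (646 CPM, 2.40 times).

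Other genes of the list were higher elsewhere or nearly as high in other types. Tfeb read 154 ± 22 CPM in oligodendrocytes and 147 CPM in microglia-like nuclei, with overlapping mice, and stood at 5.35 CPM in excitatory neurons. Lamp1 and Npc1, a cholesterol exporter, were also highest in oligodendrocytes, at 109 and 125 CPM. Cd63, a tetraspanin, was highest in astrocytes (25.5 ± 5.3 CPM, 2.80 times the next type), and Gaa, the acid glucosidase that degrades glycogen, in inhibitory neurons (69.1 ± 13.3 CPM, 2.12 times), in both cases in 11 of 11 mice. Of the proton pump subunits, Atp6v0a1 read 372 CPM in microglia-like nuclei, 334 CPM in striatal projection neurons and 151 CPM in astrocytes, its lowest type, and Atp6v1h ranged only from 94.1 CPM in oligodendrocyte precursors to 141 CPM in mural-like nuclei. The part of the neuronal signal described above in these microglial levels was not tested. The microglial level of each of the 51 genes was over 56.8% of its excitatory level, the lowest being Gla at 84.2%. That cannot show how much of a level is neuronal signal.

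**Figure D2:**
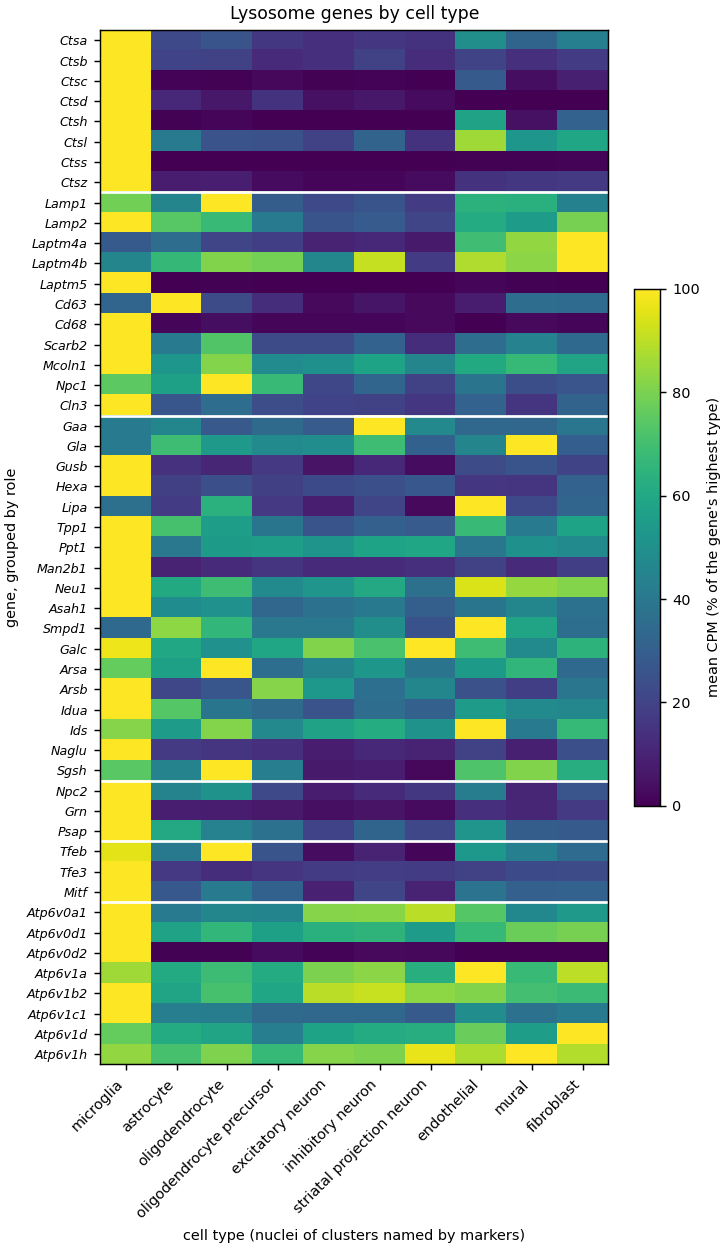
Mean CPM of 51 lysosome genes (y axis, grouped by role from cathepsins at the top to proton pump subunits at the bottom) in 10 cell types (x axis), as a percent of each gene's highest type. The first column is brightest for 34 of the 51 genes, including all 8 cathepsins, and Atp6v1h, in the bottom block, is near even across types.

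Counts of different genes are hard to set side by side, because unspliced transcripts were counted and long introns can collect more of them. The microglial UMIs of the 52 genes followed gene length only in part (rank correlation 0.537). In UMIs the largest contributors to the microglial share were Mitf (11.6% of it), Ctss (9.23%), Atp6v0a1 (6.24%), Psap (5.57%) and Arsb (5.02%), and Mitf and Arsb span 214 and 171 kb. In CPM per kb of gene, Cd68 (21.8), Ctss (18.2) and Grn (17.0) led, whereas Mitf stood at 3.02 and Arsb at 1.94. Division by length favours short genes such as Cd68 (1.94 kb) and Grn (6.73 kb), so neither order ranks the genes by expression. A pair of genes known for high lysosomal levels was hardly counted. Atp6v0c, the proton-translocating ring of the pump, had 0 UMIs in all 103065 nuclei. Ctsd, the main aspartic protease, had 155 UMIs in all, 34 of them in microglia-like nuclei, and it is the only one of the 52 that overlaps another gene on its strand (Gm49369, 53 UMIs). The levels of these 2 genes are therefore uncertain, and the cause was not tested.

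In the microglia-like nuclei, the share of UMIs on the 52 genes was 0.570%, 0.574%, 0.533% and 0.513% in NonTg mice, 0.535%, 0.612% and 0.734% in P301S mice, 0.573% and 0.529% in KO_P301S mice and 0.602% and 0.60% in CA_P301S mice. P301S mice spanned nearly the whole range, and the other groups lay inside it or just below. The P301S mean exceeded that of NonTg by 0.0796 percentage points with a pooled SD of 0.0676, and by 0.0260 without P301S replicate 3. The KO_P301S mean differed from the P301S mean by -0.0754 points (SD 0.0841) and by -0.0218 without that mouse. For CA_P301S the difference was -0.0260 points (SD 0.0821), and it changed sign, to 0.0276, without it. No test is given for these sums, and the 3 differences share the P301S mice.

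**Figure D3:**
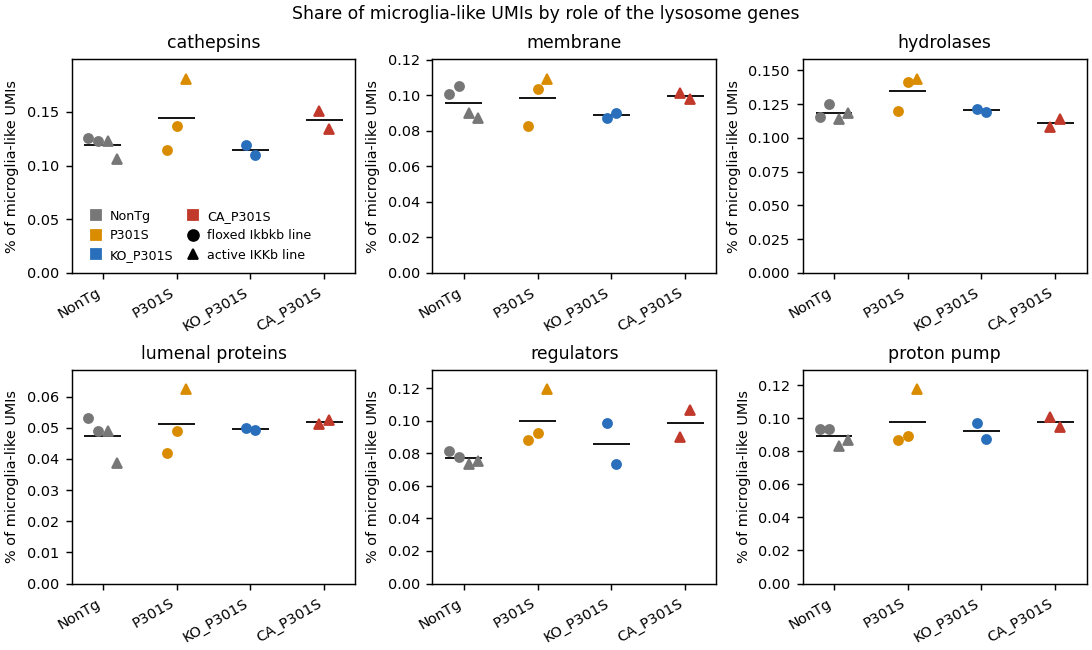
Percent of microglia-like UMIs (y axis) on each of 6 roles of lysosome genes by genotype (x axis), with 1 point per mouse, circles for the floxed Ikbkb line, triangles for the active IKKβ line and a line at the group mean. P301S replicate 3, the orange triangle, is highest in each of the 6 panels, at 0.181% for cathepsins and 0.118% for the proton pump.

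The first comparison asked what tau did to these genes where IKKβ was intact. Of the 44 lysosome genes with enough counts, none was called between P301S and NonTg mice in microglia-like nuclei (edgeR quasi-likelihood test, adjusted p under 0.05 and an absolute log2 fold change over 0.1, the smallest adjusted p being 0.159). DESeq2 also called 0, and 5 had an unadjusted p under 0.05, all 5 higher in P301S (1 without P301S replicate 3). Over all genes 3 of 9013 were called, 0.0333%, and 736 had an unadjusted p under 0.05. The 44 genes leaned upwards, with 37 above 0 and a median log2 fold change of 0.16, beside a median of -0.02 over all genes. All 7 cathepsins tested and 12 of 14 hydrolases were above 0, against 5 of 7 and 9 of 14 without P301S replicate 3. For the 44 the median without it was 0.02 and 27 of 44 were above 0. Over the 24 neuronal transcripts the median was -0.26 (1 of 24 above 0), and -0.11 without that mouse. Over 5 astrocyte and 7 oligodendrocyte transcripts it was -0.30 and 0.16. The part of these transcripts in the result was not tested.

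Mitf, the regulator with the most UMIs, came nearest. It read 569, 546, 494 and 505 CPM in NonTg mice and 707, 686 and 924 CPM in P301S mice. Every P301S mouse was above every NonTg mouse, as in 2 of the 44 genes, and in 0 of the 44 every P301S mouse was below. How many of all genes separate in this way was not counted, so these counts say nothing particular about lysosome genes. The log2 fold change of Mitf was 0.53 ± 0.14 (SE, adjusted p = 0.159), or 0.41 without P301S replicate 3. Ctsz, a carboxypeptidase, read 126, 91.3, 66.2 and 68.7 CPM in NonTg mice and 87.8, 126 and 201 CPM in P301S mice. Only P301S replicate 3 exceeded the NonTg range, replicate 2 being level with the highest NonTg mouse, and the log2 fold change of 0.74 ± 0.23 had an adjusted p of 0.277. Without that mouse it was 0.35. Ctsb read 185, 208, 205 and 149 CPM against 201, 248 and 329 CPM. Atp6v1b2, a subunit of the ATP-cleaving head of the pump, read 96.1, 71.6, 95.1 and 67.3 CPM against 126, 86.6 and 149 CPM. In both genes the groups overlapped through 1 P301S mouse of the floxed line, and their log2 fold changes were 0.49 ± 0.17 and 0.57 ± 0.20, with adjusted p of 0.361 and 0.399. Without P301S replicate 3 they were 0.30 and 0.37. With any 1 mouse left out, the log2 fold change ranged from 0.41 to 0.62 for Mitf and from 0.35 to 0.96 for Ctsz. For Ctsb it ranged from 0.30 to 0.63 and for Atp6v1b2 from 0.37 to 0.77.

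Genes on the low side were further from a call. Neu1, a sialidase, had a log2 fold change of -0.39 ± 0.32, Laptm4b of -0.35 ± 0.34, Laptm5 of -0.21 ± 0.18 and Tfeb of -0.17 ± 0.17, with adjusted p of 0.816, 0.847, 0.816 and 0.861. They were -0.65, -0.76, -0.17 and -0.35 without P301S replicate 3. Neu1, from 5 to 35 UMIs a mouse, read 12.6, 25.1, 35.1 and 26.6 CPM in NonTg mice and 18.1, 14.7 and 23.4 CPM in P301S mice. Laptm4b read 35.4, 16.1, 22.7 and 25.2 CPM against 20.6, 9.80 and 24.8 CPM. Both overlapped between the groups. Laptm5 read 286, 333, 201 and 216 CPM in NonTg mice and 178, 270 and 225 CPM in P301S mice. Tfeb read 147, 134, 170 and 154 CPM against 95.5, 136 and 164 CPM. In Laptm5 and Tfeb P301S replicate 1 was the lowest of the 7 mice, and the other P301S mice lay within the NonTg range.

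Whether the P301S difference itself depended on the breeding line was fitted as an interaction, but the active IKKβ line had 1 P301S mouse, replicate 3, so that the line and that mouse cannot be told apart and the spread comes from the other groups. edgeR called 0 of the 44 genes (smallest adjusted p 0.296) and 0 of 9013, and an unadjusted p under 0.05 was found for 8 and 724. Ctsz had the smallest p, with a P301S minus NonTg log2 fold change of 1.51 in the active IKKβ line and 0.02 in the floxed line, a difference of 1.49 ± 0.33.

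The second comparison asked what loss of IKKβ in microglia did to P301S mice. None of the 44 genes was called between KO_P301S and P301S mice (smallest adjusted p 0.448), and none of the 9013 genes was, 0% (817 had an unadjusted p under 0.05). DESeq2 also called 0 of the 44. An unadjusted p under 0.05 was found for 6 of the 44, all 6 lower in KO_P301S mice, and for 2 of the 44 without P301S replicate 3. The median log2 fold change was -0.15 with 11 of 44 above 0, beside -0.00 over all genes. Without P301S replicate 3 it was 0.00 with 22 of 44 above 0. The 24 neuronal transcripts moved the other way, with a median of 0.33 and 24 of 24 above 0, and 0.19 with 23 of 24 without that mouse. The astrocyte and oligodendrocyte transcripts had medians of 0.89 (5 of 5 above 0) and 0.28 (7 of 7). Their part was not tested.

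Ctsc, which activates serine proteases, had the smallest p. It read 129, 167 and 190 CPM in P301S mice and 105 and 65.8 CPM in KO_P301S mice. Both KO_P301S mice were below every P301S mouse, as in 7 of the 44 genes, and in 3 of the 44 both were above. The share over all genes was not counted, so these counts say nothing particular about lysosome genes. The log2 fold change of Ctsc was -0.86 ± 0.28 (adjusted p = 0.448). It was -1.33 without KO_P301S replicate 1 and -0.75 without P301S replicate 3. NonTg mice read 101, 161, 178 and 77.1 CPM and so overlapped both groups. Atp6v1c1, a regulatory subunit of the pump, read 103, 116 and 171 CPM in P301S mice and 107 and 69.9 CPM in KO_P301S mice. Atp6v1b2 read 97.2 and 61.7 CPM and Ctsb 224 and 158 CPM in KO_P301S mice. In these 3 genes KO_P301S replicate 1 lay inside the P301S range, and their log2 fold changes were -0.53 ± 0.21, -0.54 ± 0.23 and -0.42 ± 0.19, with adjusted p of 0.492, 0.523 and 0.543. They were -0.27, -0.33 and -0.22 without P301S replicate 3 and -0.31, -0.32 and -0.22 without KO_P301S replicate 2, but -0.94, -0.99 and -0.74 without KO_P301S replicate 1.

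On the high side no p was small. Atp6v1d, a stalk subunit of the pump, had a log2 fold change of 0.29 ± 0.25, Tpp1, a tripeptidyl peptidase, of 0.25 ± 0.23, Idua of 0.36 ± 0.36 and Atp6v0a1 of 0.14 ± 0.15. Their adjusted p lay between 0.750 and 0.797, and the first was 0.17 without P301S replicate 3. Tpp1 read 38.7, 44.1 and 48.9 CPM in P301S mice and 49.0 and 59.6 CPM in KO_P301S mice. Atp6v0a1 read 307, 379 and 384 CPM against 388 and 395 CPM. Neither gene overlapped between the groups, although the nearest mice were less than 5 CPM apart. Atp6v1d read 43.9, 42.5 and 38.1 CPM in P301S mice and 52.3 and 43.2 CPM in KO_P301S mice. Idua read 25.8, 14.7 and 18.7 CPM against 18.0 and 35.0 CPM. Both of these overlapped.

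The third comparison asked what constant IKKβ activity did, and here 1 lysosome gene was called. Arsb, the sulfatase that removes sulfate from dermatan and chondroitin chains, fell. It read 374, 475 and 369 CPM in P301S mice and 191 and 145 CPM in CA_P301S mice, from 145 to 552 and 315 and 218 UMIs. It read 367, 410, 292 and 313 CPM in NonTg mice and 336 and 391 CPM in KO_P301S mice, so that both CA_P301S mice were below each of the other 9. The log2 fold change was -1.29 ± 0.18 (edgeR adjusted p = 0.000260), and the CA_P301S mean was 41.3% of the P301S mean. Over all genes 137 of 9013 were called, 1.52%, beside 1 of the 44. Across 21 alternative settings Arsb was called 21 times, with log2 fold changes of -1.52 to -1.03. In 2 of these 1 CA_P301S mouse remained, assumed to vary like the mice of the other groups. Within the active IKKβ line alone, the 3 mice without Cre read 292, 313 and 369 CPM. The share of neuronal transcripts was 2.35% and 2.75% in the CA_P301S mice, inside the range of the other 9. In the nuclei with a low neuronal share the log2 fold change was -1.52. Excitatory neurons read Arsb at 178 CPM, and the part of neuronal signal in its microglial values was not tested. Arsb (chromosome 13, 93771630 to 93943016, plus strand, mm10) is a long gene of which 3.52% is exonic, and the other gene at the locus, Gm26527, lies on the opposite strand.

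In the other fitted types Arsb showed no called difference in the same contrast. Its log2 fold change was 0.05 in astrocytes, -0.01 in oligodendrocytes, -0.04 in oligodendrocyte precursors, -0.20 in excitatory neurons, -0.14 in inhibitory neurons and 0.07 in striatal projection neurons, with adjusted p of 0.809 or more. Oligodendrocyte precursors, the next highest type, read 257, 267 and 312 CPM in P301S mice and 221 and 322 CPM in CA_P301S mice. Those groups overlapped. Whether the microglial difference exceeds that of the other types was not tested.

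The other 43 genes tested were not called with active IKKβ. The median log2 fold change of the 44 was -0.06 with 16 above 0, beside 0.00 over all genes, and it turned to 0.06 with 32 above 0 without P301S replicate 3. Ctsh read 95.5, 142 and 218 CPM in P301S mice and 252 and 232 CPM in CA_P301S mice. Both CA_P301S mice were above every P301S mouse, as in 3 of the 44 genes, and in 5 of the 44 both were below. Over all genes this was not counted, so these counts say nothing particular about lysosome genes. The 4 NonTg mice (147, 120, 155 and 142 CPM) and both KO_P301S mice (136 and 132 CPM) were also below the CA_P301S mice in Ctsh. Its log2 fold change of 0.58 ± 0.20 was not called (adjusted p = 0.208), but without P301S replicate 3 it was 0.95 and called (adjusted p = 0.00608), and without P301S replicate 1 it was 0.38.

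On the low side, Ppt1, a palmitoyl thioesterase, read 121, 150 and 132 CPM in P301S mice and 91.3 and 113 CPM in CA_P301S mice, Ctsb 204 and 190 CPM and Ctsc 134 and 90.6 CPM. Only Ppt1 separated the groups, and NonTg mice, at 98.6, 118, 99.2 and 116 CPM, were near its CA_P301S values. The log2 fold changes were -0.41 ± 0.17, -0.44 ± 0.18 and -0.57 ± 0.26, with adjusted p of 0.392, 0.403 and 0.486. That of Ctsb was -0.25 without P301S replicate 3, and that of Ctsc -0.90 or -0.34 without CA_P301S replicate 1 or 2. Cln3, Neu1 and Tfeb were higher by log2 values of 0.29 ± 0.20, 0.46 ± 0.32 and 0.25 ± 0.19, with adjusted p of 0.824, 0.842 and 0.860. Without P301S replicate 3 they were 0.33, 0.72 and 0.44. In CA_P301S mice Cln3 read 100.4 and 85.9 CPM (P301S 82.6, 63.7 and 81.0 CPM) and Neu1 24.8 and 29.97 CPM, both above the P301S mice, while Tfeb (136 and 193 CPM) overlapped with them. The medians of the neuronal, astrocyte and oligodendrocyte transcripts were -0.01, 0.04 and 0.04.

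**Figure D4:**
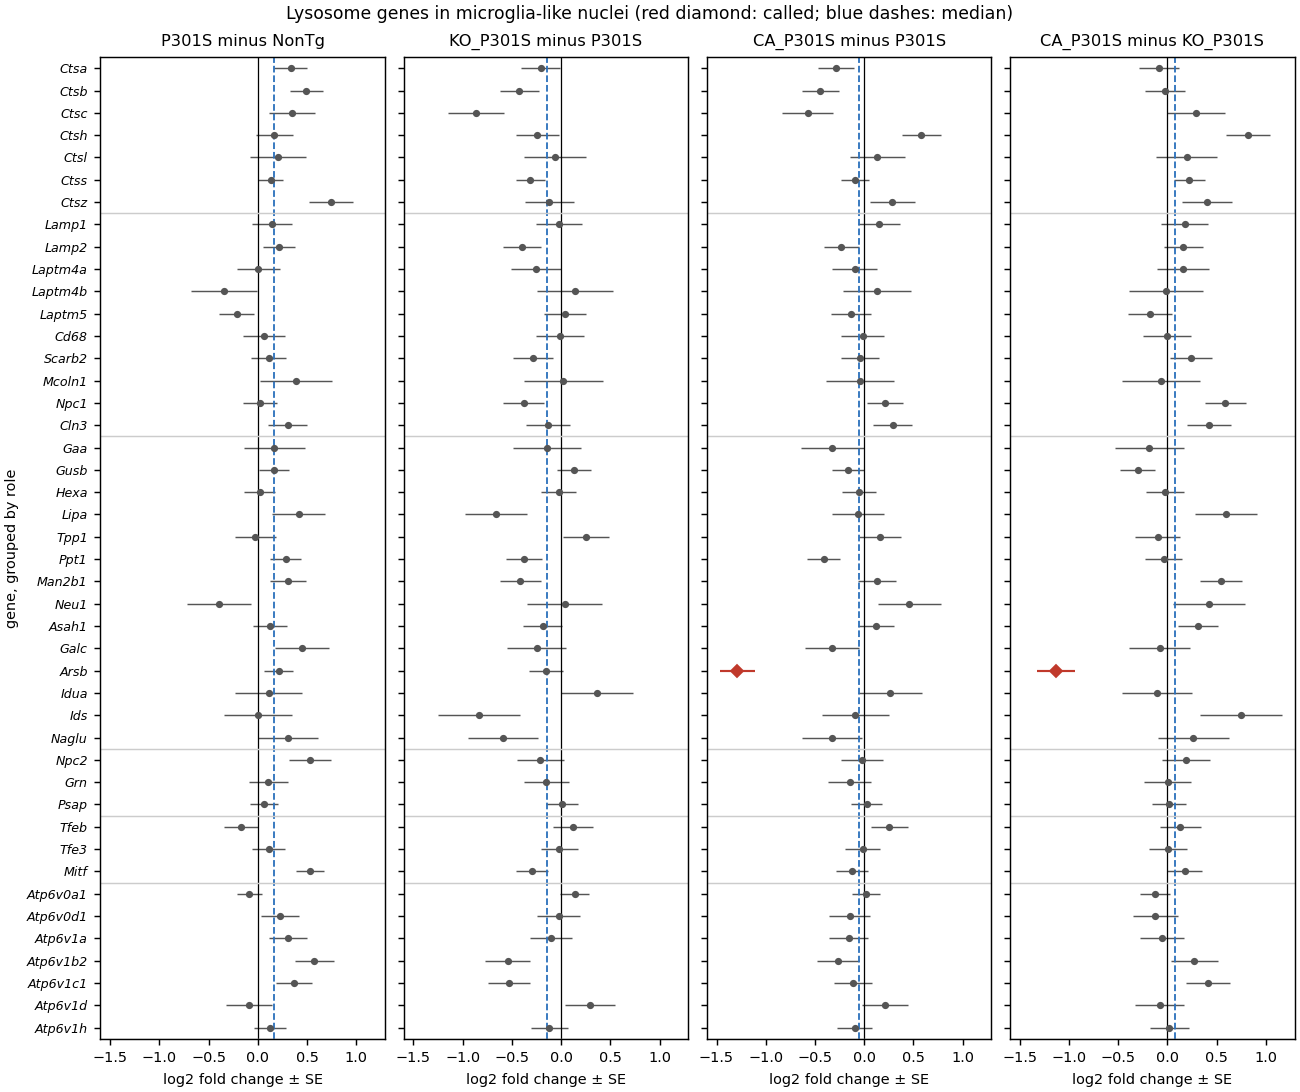
Log2 fold change ± SE (x axis) of the 44 lysosome genes tested in microglia-like nuclei (y axis, grouped by role) in 4 comparisons of genotypes, with called genes as red diamonds and the median of the 44 as a blue dashed line. Arsb is the single called gene, at -1.29 and -1.13 in the 2 panels with CA_P301S mice, and the medians stand at 0.16, -0.15, -0.06 and 0.08.

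The mice with Cre were also compared directly, CA_P301S against KO_P301S, which holds the Cx3cr1 allele constant but not the breeding line or the age. CA_P301S mice were 9.8 and 10.85 months old and KO_P301S mice 8.39 and 9.15 months. Arsb was again the 1 gene called of 44, with a log2 fold change of -1.13 ± 0.19 (adjusted p = 0.00184), beside 152 of 9013 genes, 1.69%. With the breeding line as a covariate it was -0.80 and not called (adjusted p = 0.155), with age as a covariate it was -1.17 (adjusted p = 0.107), and with the replicate block it was -0.79 (adjusted p = 0.0887). Line, age and genotype cannot be told apart in this pair of groups. Ctsh was next, with a log2 fold change of 0.82 ± 0.22 (adjusted p = 0.0682), and was called without P301S replicate 3 (0.82, adjusted p = 0.010) or without P301S replicate 1 (0.83, adjusted p = 0.0199), which change the estimate of the spread.

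Npc1 read 70.3 and 78.1 CPM in KO_P301S mice and 100.4 and 125 CPM in CA_P301S mice. Man2b1, an acid mannosidase, read 124 and 101 CPM against 163 and 180 CPM, and Cln3 60.5 and 80.2 CPM against 100.4 and 85.9 CPM. In each of these 3 genes both CA_P301S mice were above both KO_P301S mice, as they were in 14 of the 44 genes. In 3 of the 44 both were below, and the share over all genes was not counted, so these counts say nothing particular about lysosome genes. The log2 fold changes of Npc1, Man2b1 and Cln3 were 0.59 ± 0.21, 0.55 ± 0.22 and 0.42 ± 0.22, with adjusted p of 0.195, 0.262 and 0.439. Gusb, a glucuronidase, read 121 and 127 CPM in KO_P301S mice and 100.4 and 105 CPM in CA_P301S mice, with a log2 fold change of -0.30 ± 0.18 (adjusted p = 0.501). Atp6v0a1 (395 and 338 CPM in CA_P301S mice) and Laptm5 (198 and 271 CPM in KO_P301S mice, 218 and 198 CPM in CA_P301S mice) were at -0.12 ± 0.16 and -0.18 ± 0.22 (adjusted p 0.799 and 0.801). The neuronal transcripts were lower in CA_P301S mice, with a median of -0.36 and 0 of 24 above 0, and the astrocyte and oligodendrocyte transcripts had medians of -0.70 and -0.35. Of these lists the astrocyte gene Slc1a2 alone was called, at -0.70 ± 0.18 (adjusted p = 0.0445). Their part in these values was not tested.

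**Figure D5:**
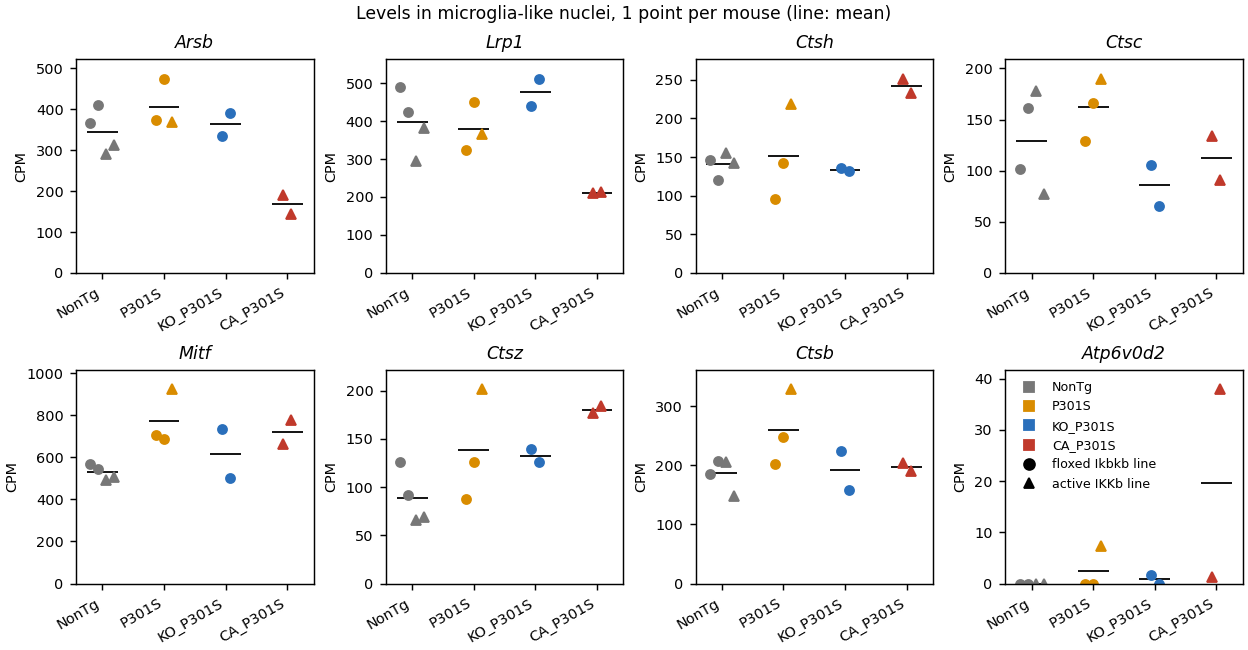
CPM in microglia-like nuclei (y axes from 0) of 7 lysosome genes and Lrp1 by genotype (x axes), with 1 point per mouse, circles for the floxed Ikbkb line, triangles for the active IKKβ line and a line at the group mean. Both CA_P301S mice lie below the other 9 mice for Arsb and Lrp1 and above them for Ctsh, and 1 CA_P301S mouse alone is high for Atp6v0d2.

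The levels of the regulators and of standard lysosome genes not yet given were as follows. Lamp2, which also serves chaperone-mediated autophagy, read 215, 193, 153 and 136 CPM in NonTg mice, 165, 221 and 216 CPM in P301S mice, 168 and 132 CPM in KO_P301S mice and 172 and 177 CPM in CA_P301S mice. Grn ranged from 75.7 to 145 CPM and Psap, the saposin precursor, from 262 to 402 CPM, with group means of 107 to 120 and 312 to 339 CPM. Cd68, widely used as a mark of phagocytic microglia, had group means of 41.8, 42.4, 42.2 and 43.3 CPM in NonTg, P301S, KO_P301S and CA_P301S mice and SDs of 1.55 to 7.53 CPM. Lamp1 had group means of 79.1 to 97.4 CPM. Ctss read 498, 557 and 696 CPM in P301S mice, 467 and 469 CPM in KO_P301S mice and 599 and 515 CPM in CA_P301S mice, with NonTg mice between 496 and 587 CPM, so that both KO_P301S mice were below the other 9, with a log2 fold change from P301S mice of -0.31 ± 0.15 (adjusted p = 0.547). Tfe3 had group means of 90.7 to 99.5 CPM. Mitf read 736 and 500 CPM in KO_P301S mice and 664 and 778 CPM in CA_P301S mice, and Tfeb 152 and 140 CPM against 136 and 193 CPM. Ctsd, whose count is uncertain, had 0 to 9 UMIs a mouse.

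Atp6v0d2, an alternative pump subunit known from osteoclasts and macrophages, was below the count filter and was not tested. It had 57 UMIs in CA_P301S replicate 2, from 15 of 594 nuclei, 11 UMIs in P301S replicate 3, 2 UMIs each in CA_P301S replicate 1 and KO_P301S replicate 1, and 0 in the 7 other mice. The CA_P301S mice differed from each other, at 38.0 and 1.21 CPM, so the level in that group rests on 1 mouse.

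Of the genes outside the 52 with a lysosomal role, 34 of 44 were tested and 1 was called, Lrp1, an endocytic receptor that also binds tau, beside 1.52% and 1.69% of all genes in the 2 comparisons with CA_P301S mice. It read 323, 451 and 366 CPM in P301S mice, 440 and 512 CPM in KO_P301S mice and 210 and 213 CPM in CA_P301S mice. Both CA_P301S mice were below the other 9, since NonTg mice read 296 to 490 CPM. The log2 fold change was -0.86 ± 0.18 against P301S mice (adjusted p = 0.0143) and -1.19 ± 0.20 against KO_P301S mice (adjusted p = 0.00126). The first was lost without P301S replicate 2, without either CA_P301S mouse, with the breeding line as a covariate or with the replicate block, at adjusted p of 0.0907 to 0.107, with log2 fold changes of -0.89 to -0.67. The second was lost with the line (adjusted p = 0.117), with age (adjusted p = 0.143) or with the replicate block (adjusted p = 0.0840), with log2 fold changes of -1.10 to -0.87. Without P301S replicate 3, 2 of the 34 were called against P301S mice, Lrp1 and 1 gene that was higher. In the P301S and knockout contrasts edgeR called 0 of the 34, and 5 and 1 had an unadjusted p under 0.05, as did 4 and 3 in the comparisons with CA_P301S mice. Of 29 autophagy genes and 2 cathepsin inhibitors tested, edgeR called 0 in any of the 4 comparisons. For the autophagy genes 2, 3, 2 and 1 had an unadjusted p under 0.05 in the P301S, knockout, active IKKβ and direct comparisons, and for the inhibitors 0, 0, 1 and 1, beside 736, 817, 792 and 1154 of all 9013 genes.

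In the 6 other fitted cell types no lysosome gene was called. Over 265 pairs of a gene and a type, 0 were called between P301S and NonTg mice by edgeR and 0 by DESeq2 (11 had an unadjusted p under 0.05 in edgeR), beside 0.0121% of all such pairs. Between KO_P301S and P301S mice it was 0 of 265 by both tools (10 unadjusted), beside 0%, and between CA_P301S and P301S mice 0 of 265 by both (10 unadjusted), beside 0.00363%. The medians of the lysosome genes in these types lay between -0.08 and 0.09. The smallest p belonged to Laptm4a in oligodendrocyte precursors of KO_P301S mice, with a log2 fold change of -0.91 ± 0.22 (adjusted p = 0.426). It read 43.0, 39.4 and 36.9 CPM in P301S mice and 20.4 and 22.2 CPM in KO_P301S mice, with NonTg mice between 23.6 and 31.2 CPM. Tfeb was higher in inhibitory neurons of CA_P301S and KO_P301S mice, by 0.71 ± 0.15 (adjusted p = 0.788) and 0.60 ± 0.15 (adjusted p = 0.668), in 2 contrasts that share the P301S mice. P301S mice read 11.5, 12.4 and 10.4 CPM there, KO_P301S mice 16.1 and 18.1 CPM and CA_P301S mice 18.4 and 20.03 CPM, while NonTg mice read 11.8 to 15.1 CPM. In excitatory neurons of KO_P301S mice Tfeb was also higher, by 0.62 ± 0.17 (adjusted p = 0.530). The 7 oligodendrocyte transcripts had medians of 0.44 (7 of 7 above 0) in the knockout contrast and -0.00 (3 of 7) in the active IKKβ contrast of inhibitory neurons, and of 0.92 (7 of 7) in the knockout contrast of oligodendrocyte precursors. In the knockout contrast of excitatory neurons the oligodendrocyte and astrocyte transcripts had medians of 0.47 (7 of 7 above 0) and 0.50 (7 of 7). The part of these transcripts in the values of Tfeb and Laptm4a was not tested.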

How the data were processed

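Per the labels and the study's methods, the authors prepared nuclei from frozen cortex, made libraries with 10x Chromium 3′ v3 kits and counted UMIs with Cell Ranger 3.1.0 on mm10, pre-mRNA reads included, and the deposited matrices hold these raw counts. A barcode was kept where it had between 300 and 8000 genes detected, with mitochondrial UMIs no higher than 5% (112539 of 114118), 9474 doublets found by simulated neighbours were removed, and clusters, made without the lysosome genes, were named from markers, so names may differ from the study's. The libraries held 72.0 to 93.2 x 1e6 UMIs. Counts were summed per mouse and type and tested with edgeR 4.0.16 (TMM, filterByExpr, 11 mice in 1 quasi-likelihood fit, Benjamini-Hochberg over all genes tested). Types with fewer than 100 nuclei in any mouse were not fitted, and mice with fewer than 20 were left out of levels. The study tested nuclei with MAST, whereas here mice are the replicates, and p-values measure the spread between these mice. The test was also run on simulated counts, but these were drawn from its own fitted model without differences in line, age or background. That run cannot show how the test performs on these mice. Mouse values are given for genes called, for the 4 smallest p in each direction of each microglial contrast, for the 3 regulators and for 8 standard genes. The gene list and the tests were chosen with earlier results of these data known. Pre-set alternatives were another scaling, DESeq2 1.42.0, no count filter, each mouse left out, line, age or a replicate block as covariates, doublets kept, thinned counts, other clusters and nuclei low in neuronal RNA. Deviations from the group mean in same-numbered mice of a line had correlations of -0.0787 to 0.0856 over 10 pairs. In groups this small the deviations of the mice in a group depend on each other. These correlations therefore cannot show whether the numbers paired the mice. Some same-numbered mice of a line had the same age and others did not.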

Additional observations from a re-analysis of the deposited data

Results flagged for a closer look

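Of 42 sets of 4 NonTg values checked for a mouse far from the rest, 2 stood out, and chance gives about 1 in 20. Tfe3 in microglia-like nuclei read 72.4 CPM in NonTg replicate 3, where the other 3 NonTg mice lay close together up to 98.6 CPM. The share of microglia-like UMIs on the 8 cathepsins was 0.106% in NonTg replicate 4, where the other 3 lay close together up to 0.126%.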

How the results depend on the processing

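Of the recomputed values that answer a comparison, 192 were labelled the same and 17 were not. A difference in share counted as the same where it moved by less than its pooled SD, even with a change of sign. The microglial shares with 1 mouse left out were labelled the same without a check. Many other values are counts of 0 that stayed at 0, so the tally does not measure robustness. With no filter on low counts, 2 lysosome genes were called in the P301S contrast (Mitf and Ctsz), 1 in the knockout contrast (Ctsc), 3 in the active IKKβ contrast (Arsb, Ctsh and Atp6v0d2), 3 in CA_P301S against KO_P301S and 1 in the line interaction. The cause was not tested. Leaving out 1 mouse gave 0 calls in the P301S and knockout contrasts and 1 to 2 calls in the active IKKβ contrast and in CA_P301S against KO_P301S, the second gene being Ctsh or, without CA_P301S replicate 1, Atp6v0d2. Atp6v0d2 passed the count filter there only through the remaining CA_P301S mouse, whose spread was taken from the other groups, so its call says nothing about the group. It gave 0 calls in the other types and 0 in the interaction, which could not be fitted without P301S replicate 3. In CA_P301S against KO_P301S, 0 were called with the line, age or the replicate block as a covariate. The replicate block changed no other count of lysosome genes called. Weighting each gene equally, the mean log2 CPM of the 52 genes differed by 0.10 in the P301S contrast (pooled SD 0.12) and by -0.14 in the knockout contrast (SD 0.12). Leaving out P301S replicate 3 as well, an alternative chosen after seeing the data, gave 0.0196 (SD 0.0970) and -0.0574 (SD 0.0349). In these means 2 was added to the count of each gene. Genes with few or no UMIs, such as Atp6v0c, therefore partly follow the UMI total of a mouse. Their part in these differences was not tested. Leaving out 1 mouse, the difference in share ranged from 0.0260 to 0.126 points for P301S, -0.122 to -0.0218 for the knockout and -0.0722 to 0.0276 for active IKKβ, and the microglial share from 0.564% to 0.586%. Groups of 2 mice limit the precision, and intervals of small counts such as Neu1, Ctsd and Atp6v0d2 are wide.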
